A study of Mus musculus with 17 samples.

Results

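The transcription factors Pax5, Bach2, Bcl6, Irf8, Ebf1, Spib, Ets1, Foxo1, Tcf3 and Id3, which set B cell identity or act in the germinal center, were examined in antibody-secreting cells (ASCs) sorted from the bone marrow of aged and young mice. All probes of the array whose gene symbol is that of a factor were taken, with the symbols of the platform annotation or, where it names none, those of the study's probe table. This gave 13 of 45281 probes, for 7 of the 10 factors and of 13126 named genes. The study's table lists only probes that the study found to differ between aged and young ASCs in these arrays. A probe named there alone, here 1 of the 13, the brighter of Bach2, was thus taken in because it differed. No probe carried the name of Pax5, Tcf3 or Id3, so these 3 factors were not analysed here. The aged group comprised 6 samples from mice over 17 months of age, and the young group 9 samples from mice of 6 to 8 weeks. All mice came from 1 commercial breeder, and their strain and sex are not given in the sources used here. The cells were sorted from hind leg marrow by surface markers, and their transcripts were profiled with Illumina MouseWG-6 v2 BeadChips, where a brighter probe means more of its transcript. Where cells were few, those of several mice were pooled. Which samples are pools is not given, but the study names as many young mice as young samples and more aged mice than aged samples, so pooling and age cannot be told apart. Replicates are separate samples by the labels, and p-values measure the spread between these samples.

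These factors form a network that is built up in bone marrow and taken apart again when a B cell becomes a plasma cell. Tcf3 and Ebf1 open the B cell program, Foxo1 supports it, Id3 restrains Tcf3, and Pax5 fixes the lineage by activating B cell genes and silencing others. In activated B cells Bcl6 and Bach2 hold back Prdm1, the repressor that drives plasma cell formation, while Irf8, Spib and Ets1 are known from mouse and human B cells to restrain that step as well. ASCs are known for low levels of most of these factors and for high levels of Prdm1, Irf4 and Xbp1.

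All levels are log2 signals after quantile normalization. Young samples 3 and 4 were each run on 2 of the 17 arrays, and their repeats were averaged. The median raw signal per array was 152 to 267 in the aged and 105 to 355 in the young group. Between 10401 and 17120 probes per aged sample and between 8998 and 15864 per young sample had a detection p-value under 0.05, and such probes are called detected. The labelled cell type was checked on 12 plasma cell markers, of which all have a named probe and 11 were bright enough to be tested. Their mean log2 signal was 9.42 to 10.43 in aged samples (median 10.22) and 9.11 to 9.58 in young samples (median 9.35). Sdc1, which encodes the plasma cell surface protein CD138, was not among the tested probes. Transcripts of other marrow cells were measured as well, and all 10 neutrophil granule markers could be tested, with a mean log2 signal of 10.46 to 11.60 in aged and 10.54 to 11.56 in young samples. Fewer cells of a type and less RNA per cell cannot be told apart in such samples.

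No probe of these factors differed between aged and young ASCs at an adjusted p under 0.05. The probe with the largest measured difference was the brighter of Bach2, which was detected in 1 of 6 aged samples. With each aged sample at no less than the lowest signal that counted as detected there, its aged mean was 0.606 times the young mean. Young samples were left as measured. With both groups as measured, the aged mean was 0.495 times the young mean. Irf8 followed at 0.677 times and 1 of the 3 Ebf1 probes at 0.693 times. At the brightest probes of Ebf1, Ets1, Spib, Foxo1 and Bcl6 the unadjusted p was above 0.05 as well. Of the 13 probes, 12 had a lower mean in aged ASCs and 1, the brightest Ets1 probe, a higher mean, and the same count was found with arrays scaled to their 75th percentile, with neqc, limma's background correction from detection p-values, and in the authors' value table. Among all 45281 probes 54.9% had a lower mean in the aged. The count of 12 includes the brighter Bach2 probe, which is no separate support, as its name comes from the study's list of differing probes. The 13 probes belong to 7 factors and were measured in the same samples, so they are not 13 separate results.

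The test was limma on probes that at least 7.5 of the 15 samples detected and that ranged over at least 1.2-fold, which kept 11073 probes, and p-values were adjusted over all of these by Benjamini-Hochberg. The 7 probes that passed this filter belong to Ebf1, Spib, Irf8, Ets1 and Bcl6, and 0 of them were called, that is, had an adjusted p under 0.05, against 1.38% of all tested probes called in either direction and 0.325% called lower. A lower mean in aged ASCs was found for 6 of the 7, against 51.8% of tested probes. At an unadjusted p under 0.05, 2 were lower and 0 higher in aged ASCs, against 5.27% of tested probes lower and 8.81% higher. Their lowest adjusted p was 0.184 from limma. The filter can leave out a probe because it is dim in a whole group, and it is not even between the groups. A probe detected in the 9 young samples alone passes, and a probe detected in the 6 aged samples alone does not. The 2 lower probes, of Ebf1 and Irf8, were each detected in 4 aged and all 9 young samples. Counts of lower and higher means among tested probes are tilted by this. All 45281 probes were therefore also fitted. In that fit 0 of the 13 probes were called, against 0.0994% of all probes, 4 were lower at an unadjusted p under 0.05, against 3.04%, and 0 were higher. Of these 4, 1 is the brighter Bach2 probe, which was named through the study's own list of differing probes. The median log2 fold change, aged minus young, was -0.25 over the 13 probes, -0.25 without Foxo1, which no aged sample detected, and -0.01 over all probes. The number of arrays limits the precision of all these values.

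**Figure D1:**
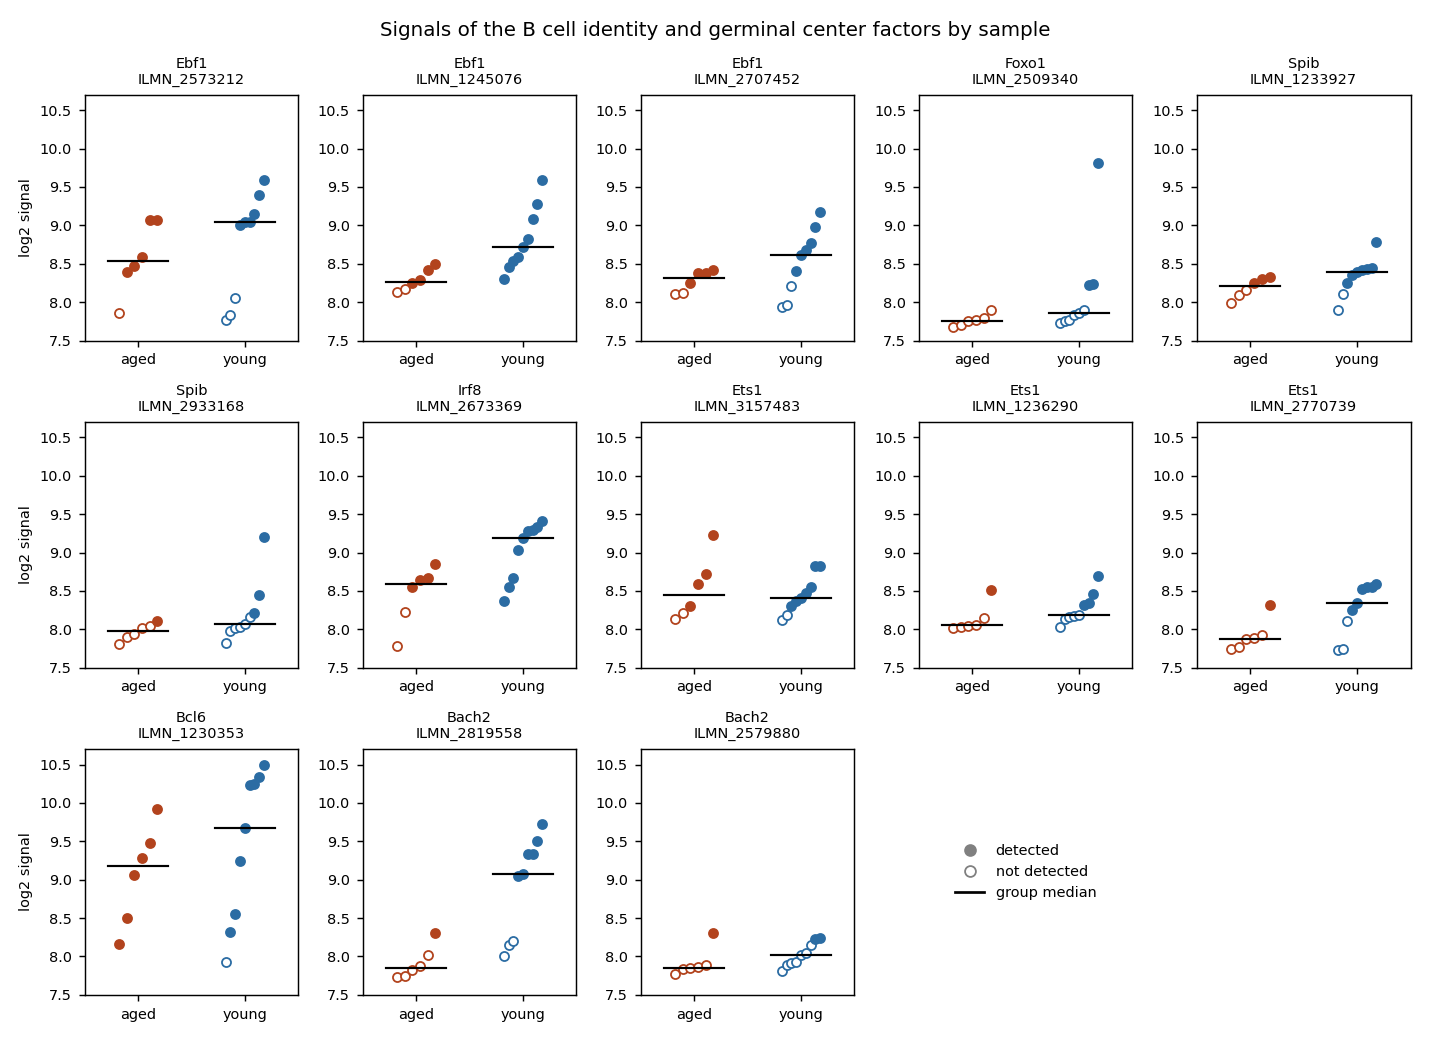
Normalized log2 signal of each of the 13 probes in the 6 aged (red) and 9 young (blue) samples, with filled points where the probe was detected, open points where it was not, and a line at each group median. Aged and young points overlapped at every probe, and at Bach2 ILMN_2819558 the 6 detected young samples lay above all aged samples.

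**Figure D2:**
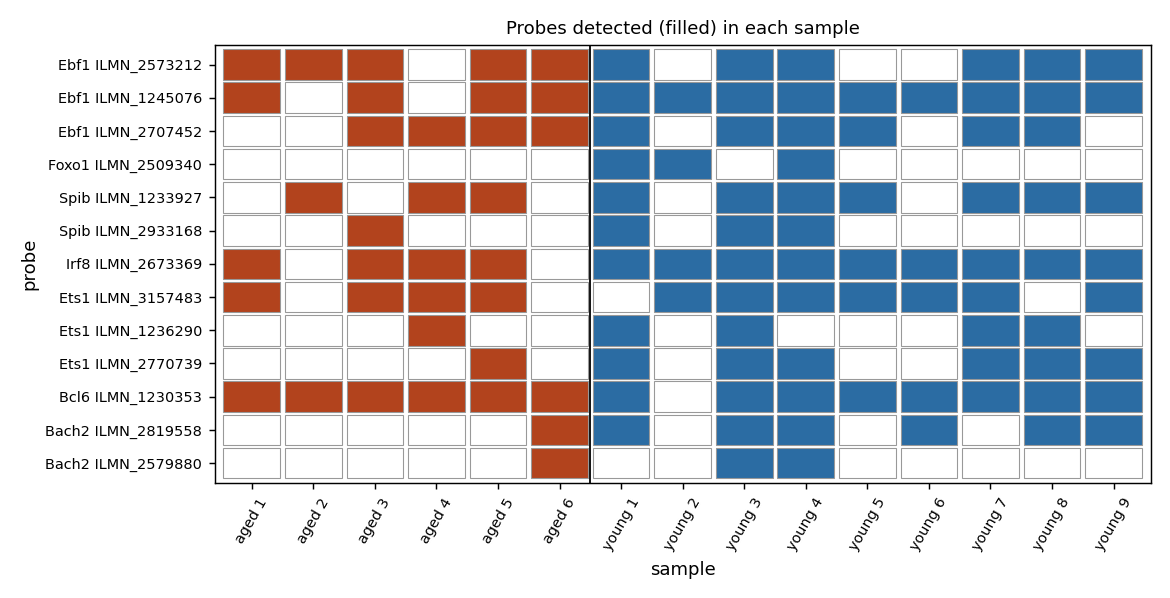
Samples (columns) in which each probe (rows) was detected at a detection p-value under 0.05, shown by filled cells, aged samples in red left of young samples in blue. Between 3 and 8 of the 13 probes were detected per aged sample (median 6) and between 4 and 12 per young sample (median 9).

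Ebf1 (early B cell factor 1), which starts the B cell program, lies at chr11:44618100-45008096 in the mouse genome build GRCm38.p6 and is covered by 3 probes, all of which were tested. At the brightest, ILMN_2573212, the log2 signal was 7.86, 8.53 and 9.07 (lowest, median, highest) in aged and 7.77, 9.04 and 9.59 in young samples. The groups overlapped throughout, because young samples 2, 5 and 6 lay at 8.05 or below and were not detected, and neither was aged sample 4, at 7.86. The log2 fold change was -0.19 (standard error 0.29, adjusted p = 0.830 from limma). Its 95% confidence interval was -0.79 to 0.41. A different picture was seen at ILMN_1245076, where the signal was 8.13, 8.26 and 8.50 in aged and 8.31, 8.72 and 9.58 in young samples. Here 4 of 6 aged samples lay below every young sample, 7 of 9 young samples lay above every aged sample, and the probe was detected in 4 aged and in all 9 young samples. Its mean was 8.29 ± 0.14 (SD, n = 6) in aged and 8.82 ± 0.42 (SD, n = 9) in young samples. The log2 fold change was -0.53 (standard error 0.19, unadjusted p = 0.0111, adjusted p = 0.184 from limma). ILMN_2707452 lay between these, at -0.25 (standard error 0.18, adjusted p = 0.577 from limma), with 8.11, 8.31 and 8.41 in aged and 7.93, 8.61 and 9.17 in young samples. All 3 probes had a lower mean in aged ASCs, and 1 of the 3 had an unadjusted p under 0.05.

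Foxo1, a forkhead factor needed for expression of the recombinase genes in precursor B cells, lies at chr3:52268337-52350109. Its only probe, ILMN_2509340, did not pass the filter. It was not detected in any of the 6 aged samples, where the log2 signal was 7.67, 7.76 and 7.90, and was detected in 3 of 9 young samples, where it was 7.72, 7.85 and 9.82. The highest value was that of young sample 2, and the next young sample lay at 8.24. The mean signal was 7.76 ± 0.08 (SD, n = 6) in aged and 8.12 ± 0.66 (SD, n = 9) in young samples. The limma p in the fit of all probes was 0.153 unadjusted and 0.825 adjusted. The young mean lay below 8.20, the mean over aged samples of the lowest signal that counted as detected, so no fold is given.

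Spib, an ETS family factor related to Spi1 that acts in B cells and in plasmacytoid dendritic cells, lies at chr7:44525995-44532087 and has 2 probes. The brighter one, ILMN_1233927, gave 7.99, 8.20 and 8.33 in aged and 7.90, 8.40 and 8.78 in young samples. All 6 aged samples lay below the young median, as at 8.39% of tested probes, and 6 young samples lay above every aged sample, while young samples 2 and 4 lay among the aged and young sample 6 below them. The log2 fold change was -0.16 (standard error 0.12, adjusted p = 0.611 from limma). Its 95% confidence interval was -0.40 to 0.09. The dimmer probe, ILMN_2933168, was detected in 1 aged and 3 young samples and differed by -0.25 (standard error 0.16, adjusted p = 0.808 from limma in the fit of all probes).

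Ets1, another ETS family factor, lies at chr9:32636241-32757820 and was the factor whose probes disagreed in direction. At the brightest probe, ILMN_3157483, the log2 signal was 8.13, 8.45 and 9.23 in aged and 8.13, 8.41 and 8.83 in young samples. The groups overlapped almost fully, with aged sample 5 above the rest, and the log2 fold change was 0.08 (standard error 0.17, adjusted p = 0.891 from limma). Without aged sample 5 it was -0.06. At the dimmer ILMN_2770739 the signal was 7.74, 7.88 and 8.32 in aged and 7.73, 8.34 and 8.60 in young samples, and the probe was detected in aged sample 5 alone among the aged and in 6 of 9 young samples. Its log2 fold change was -0.35 (standard error 0.14, limma p = 0.0266 unadjusted and 0.615 adjusted in the fit of all probes, two-sided exact permutation p = 0.0501). With the aged samples raised to the lowest signal that counted as detected in each, this difference was -0.04. The young samples were left as measured, also where the probe was not detected, which brings this value nearer to no difference. ILMN_1236290 was detected in 1 aged and 4 young samples and differed by -0.14 (standard error 0.10, adjusted p = 0.845 from limma).

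Irf8 (interferon regulatory factor 8), a partner of ETS factors in B cells and a factor of dendritic cells and monocytes, lies at chr8:120736358-120756694 and is covered by 1 probe, ILMN_2673369. Its log2 signal was 7.79, 8.60 and 8.86 in aged and 8.37, 9.19 and 9.41 in young samples. Aged samples 2 and 6 lay below every young sample and were not detected, while 6 of 9 young samples lay above every aged sample. Young samples 2, 3 and 5, at 8.55, 8.67 and 8.37, lay among the aged samples. The mean was 8.45 ± 0.39 (SD, n = 6) in aged and 9.02 ± 0.39 (SD, n = 9) in young samples. The log2 fold change was -0.56 (standard error 0.21, unadjusted p = 0.0156, adjusted p = 0.216 from limma), with a 95% confidence interval of -1.01 to -0.12. The two-sided exact permutation test gave p = 0.0160 before any adjustment. With each sample left out in turn, the log2 fold change ranged from -0.64 to -0.43 in the fit of all probes. With background correction by neqc it was -1.17 (adjusted p = 0.234 from limma). The unadjusted limma p rose above 0.05 with scaling to the 75th percentile (-0.45, p = 0.0861) and with the replicate block (-0.42, p = 0.0837). The same held in the filtered fit without aged sample 2 (-0.43, p = 0.0552 from limma).

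Bcl6 (B cell lymphoma 6), the repressor that maintains germinal center B cells, lies at chr16:23965050-23988866. Its probe, ILMN_1230353, was detected in all 6 aged and in 8 of 9 young samples, with 8.16, 9.17 and 9.92 in aged and 7.92, 9.68 and 10.49 in young samples. Young samples 5, 7, 8 and 9 lay above every aged sample, whereas young samples 1, 2 and 6 lay near the lowest aged samples, and young sample 2 was the lowest of all. The mean was 9.07 ± 0.64 (SD, n = 6) in aged and 9.45 ± 0.98 (SD, n = 9) in young samples, and the log2 fold change was -0.38 (standard error 0.39, adjusted p = 0.734 from limma). The confidence interval of -1.19 to 0.43 includes differences in both directions.

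Bach2, a repressor that delays plasma cell formation and is needed for germinal centers and class switching, lies at chr4:32238413-32586109. Its brighter probe, ILMN_2819558, which is named in the study's probe table and not in the annotation, was detected in 1 of 6 aged and 6 of 9 young samples. That table lists probes the study found to differ with age, so the difference and p-values given here are not independent of that choice. Aged samples 1 to 6 had log2 signals of 8.02, 7.74, 7.74, 7.82, 7.87 and 8.30. Young samples 1 to 9 had 9.33, 8.20, 9.05, 9.72, 8.15, 9.08, 8.00, 9.34 and 9.51. The young samples thus lay at 2 levels, with samples 2, 5 and 7 not detected and within the aged range, and the other 6 at 9.05 or above, over every aged sample. All 6 aged samples lay below the young median, as at 5.77% of all probes, and 4 lay below every young sample. The mean was 7.92 ± 0.22 (SD, n = 6) in aged and 8.93 ± 0.65 (SD, n = 9) in young samples. As 5 of the 6 aged samples were not detected, the aged mean rests mostly on signals at background. Raised to the lowest detected signal of each sample it was 8.21, which leaves a difference of -0.72 with the young samples left as measured. In the fit of all probes the measured log2 fold change was -1.02 (standard error 0.25, unadjusted p = 0.000691, adjusted p = 0.168 from limma), with a 95% confidence interval of -1.54 to -0.49. The two-sided exact permutation test gave p = 0.00559 before any adjustment.

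With all 15 samples Bach2 was called under none of the filters. With single samples left out, a call depended on the filter and on which young sample was left out. Detected in 7 samples, it narrowly missed the filter of 7.5 samples. With a minimum of 6 samples it was tested and had an adjusted p of 0.0522 from limma. Without young sample 2, 5 or 7 it passed the filter and had adjusted p-values of 0.0181, 0.0270 and 0.0216 from limma, with log2 fold changes of -1.11, -1.11 and -1.13. These are the young samples in which it was not detected. Leaving 1 of them out raised the young mean and let the probe pass, so these calls are no separate support. Bach2 also passed the filter without aged sample 1, 2, 3, 4 or 5, where it was not called (adjusted p = 0.0857, 0.0576, 0.127, 0.0901 and 0.0926 from limma). In the fit of all probes no single sample left out brought it under the threshold, and its adjusted p ranged from 0.0903 to 0.387 in limma. Correcting the background with neqc gave a log2 fold change of -2.12, the size of which rests on aged signals mostly at background. The dimmer probe, ILMN_2579880, was detected in 1 aged and 2 young samples, with 7.77, 7.86 and 8.31 in aged and 7.82, 8.02 and 8.24 in young samples. It differed by -0.11 (adjusted p = 0.860 from limma in the fit of all probes), so that the 2 probes did not show a difference of like size.

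**Figure D3:**
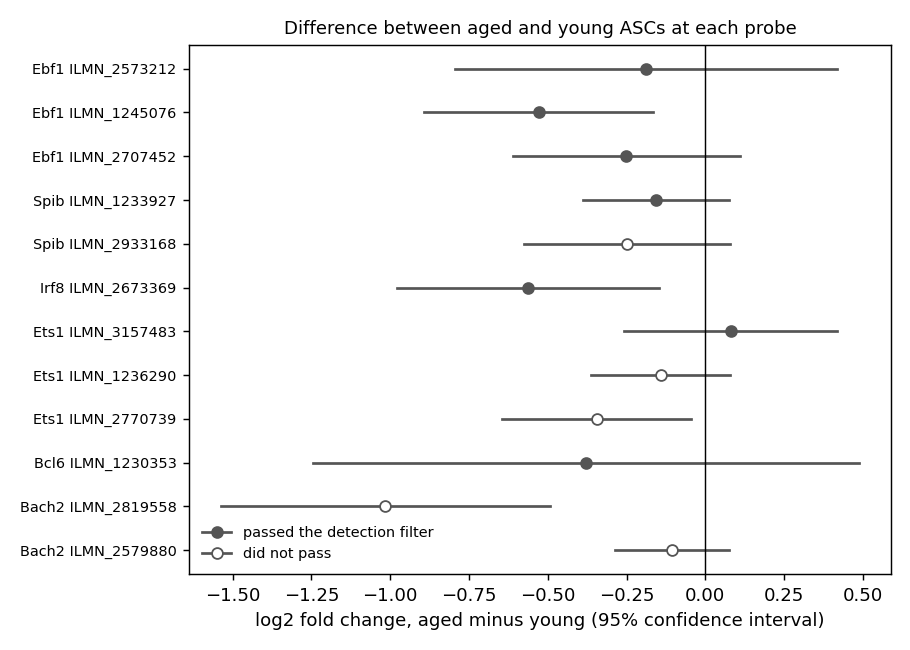
Log2 fold change, aged minus young, of each probe except Foxo1, which no aged sample detected, with its 95% confidence interval from the limma fit of all 45281 probes, with filled points for probes that passed the detection filter and open points for those that did not. Bach2 ILMN_2819558 lay farthest below 0 at a measured -1.02, and Ets1 ILMN_3157483 was the only probe above 0, at 0.08.

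Promoter sequences were read for the factors with a probe at an unadjusted p under 0.05 in the fit of all probes, Bach2, Irf8, Ebf1 and Ets1, since these carry the differences described above. RefSeq's promoter table of GRCm38.p6, which gives 250 bases before and 50 from each transcript start on, held 12 promoters for 9 of the 10 factors, and of these 4 it held Bach2, Irf8 and Ebf1. The arrays do not report on promoters, and a match is only a description of the letters. Matches on either strand to 8 motifs were marked in capitals. The Bach2 window, chr4:32417185-32417484 on the plus strand, surrounds a transcript start at 32417435 inside the gene's span. The Irf8 window is chr8:120736108-120736407 and the Ebf1 window chr11:44617850-44618149, both on the plus strand and at the 5′ end of the gene.
Bach2: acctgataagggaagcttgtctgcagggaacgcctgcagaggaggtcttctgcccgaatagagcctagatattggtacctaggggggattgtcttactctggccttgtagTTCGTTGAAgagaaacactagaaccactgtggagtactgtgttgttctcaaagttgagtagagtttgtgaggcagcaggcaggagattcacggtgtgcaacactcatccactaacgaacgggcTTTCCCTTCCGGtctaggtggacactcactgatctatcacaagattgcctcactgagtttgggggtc
Irf8: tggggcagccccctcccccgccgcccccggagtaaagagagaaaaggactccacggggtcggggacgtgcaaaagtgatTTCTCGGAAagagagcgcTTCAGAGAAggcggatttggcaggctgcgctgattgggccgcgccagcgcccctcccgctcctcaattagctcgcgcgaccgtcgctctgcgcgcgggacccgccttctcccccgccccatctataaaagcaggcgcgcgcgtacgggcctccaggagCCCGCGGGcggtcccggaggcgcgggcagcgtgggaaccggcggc
Ebf1: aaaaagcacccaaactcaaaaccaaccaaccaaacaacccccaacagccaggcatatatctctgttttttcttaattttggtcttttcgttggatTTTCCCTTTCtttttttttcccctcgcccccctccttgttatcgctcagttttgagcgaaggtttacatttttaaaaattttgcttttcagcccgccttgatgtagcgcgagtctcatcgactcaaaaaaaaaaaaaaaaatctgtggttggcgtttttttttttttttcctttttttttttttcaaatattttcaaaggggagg

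In the Bach2 window the capitals mark TTCNNNGAA, a site of the type bound by Bcl6 and STAT factors, at position -140 from the transcript start, and the composite site of ETS and IRF factors (GGAA, any 2 bases, GAAA) at -17, which overlaps the ETS motif CCGGAAG at -12. Of all 32851 promoters in the table, 8.30% hold the first, 2.72% the second and 8.86% the third. In the Irf8 window TTCNNNGAA stood at -171 and -153 and the EBF core CCCNNGGG, held by 13.7% of promoters, at 6. In the Ebf1 window the interferon response motif (GAAA, any 2 bases, GAAA), held by 3.44% of promoters, stood at -155. The composite ETS and IRF site was also found in 1 of the 2 Bcl6 promoters, at -28, and in no other promoter of these factors. The E-box CANNTG, bound by Tcf3, is held by 72.3% of promoters, and was not found in the 3 windows printed here. Irf8 and Ebf1 each have a second promoter in the table, from a start further into the gene, and each of these holds 2 E-boxes. Both the forkhead motif GTAAACA (3.65% of promoters) and the AP-1 and Maf motif TGANTCA (7.81%) were found in none of the 12 promoters.

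The other genes of the network were described from lists by the brightest tested probe of each gene. None of these lists was tested as a set, and the median log2 fold change of all tested probes was -0.01. The filter passes a probe detected in young samples alone but not one detected in aged samples alone. Counts of lower and higher means in these lists and in the marker lists are tilted by this. Some genes stand in more than 1 list, so the lists are not separate results. The counts of higher and lower means of the plasma cell regulators, the germinal center genes and the relatives of the factors were the same under the 3 other scalings named above. The regulators on the plasma cell side, which these factors oppose, lay on the other side of 0. Of 6 plasma cell regulators, 6 had a higher mean and 0 a lower mean in aged ASCs, 6 were higher at an unadjusted p under 0.05, 1 was called, and the median log2 fold change was 0.81. Xbp1, which drives the secretory machinery and is repressed by Pax5, rose by 0.82 (adjusted p = 0.0499 from limma), a call that was made without young sample 2 or 5 but was lost without any of the other 13 samples (adjusted p 0.0131 to 0.151 from limma). Of 14 other settings of normalization, filter, test, repeat array or block it was called in 5. Prdm1, the target of Bcl6 and Bach2, differed by 0.98 (adjusted p = 0.104), Zbtb20 by 0.81 (adjusted p = 0.0894) and Creb3l2, which expands the secretory pathway, by 0.71 (adjusted p = 0.138, all from limma). The mean of these 6 genes was 9.05 to 10.06 in aged (median 9.88) and 8.64 to 9.15 in young samples (median 9.02).

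Of 13 genes of the germinal center 4 could be tested. All 4 had a lower mean in aged ASCs, 2 were called, and the median log2 fold change was -0.79. Ezh2, the methyltransferase that silences genes in germinal center B cells and in other dividing cells, gave 8.30, 8.47 and 8.85 in aged and 8.74, 9.58 and 9.98 in young samples, and fell by 1.00 (standard error 0.21, adjusted p = 0.0170 from limma). Ung, the uracil glycosylase of class switching and base repair, gave 10.34, 10.63 and 10.99 in aged and 10.89, 11.33 and 11.70 in young samples, and fell by 0.72 (standard error 0.18, adjusted p = 0.0466 from limma). The call of Ezh2 was lost without aged sample 1, 3 or 6 (adjusted p up to 0.0529), and that of Ung was made only without aged sample 2, young sample 2 or young sample 5 when single samples were left out (adjusted p 0.0342 to 0.130, all from limma). Of the 14 other settings Ezh2 was called in 11 and Ung in 7. S1pr2, which confines B cells to the germinal center, differed by -0.86 (adjusted p = 0.277) and Cxcr5, the receptor for the follicle chemokine, by -0.35 (adjusted p = 0.600, both from limma). Fas was among the 9 genes not tested.

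Of 12 genes activated by Ebf1 and Pax5, 8 were tested, 5 with a lower and 3 with a higher mean in aged ASCs. Igll1 and Vpreb1, which encode the surrogate light chain of precursor B cells, were called lower at -1.69 (adjusted p = 0.00688) and -1.43 (adjusted p = 0.0142 from limma). Igll1 was detected in 3 of 6 aged and all 9 young samples and Vpreb1 in 5 aged and all 9 young samples. Their aged means thus rest in part on signals at background. Pou2af1, the octamer coactivator that germinal centers and plasma cells both use, was called higher, with 12.55, 13.46 and 14.10 in aged and 11.87, 12.57 and 12.77 in young samples and a log2 fold change of 0.99 (adjusted p = 0.0152, and 0.0570 without aged sample 3, from limma). Leaving out single samples did not end the calls of Igll1 and Vpreb1, and of 14 other settings Igll1 was called in 14, Vpreb1 in 11 and Pou2af1 in 10. Vpreb1 was not called with scaling to the 75th percentile (adjusted p = 0.0706), without the filter (adjusted p = 0.0794) or with the replicate block (adjusted p = 0.0617, all from limma). Cd72, an inhibitory receptor of B cells, differed by -0.75 (adjusted p = 0.0692), Blk by -0.41 (adjusted p = 0.246) and Blnk by 0.18 (adjusted p = 0.824, all from limma). Cd72 was detected in 2 of 6 aged and 8 of 9 young samples. The Ebf1 and Pax5 list thus held called genes in both directions, and its median was -0.28. Of 6 genes repressed by Pax5, 4 were tested, Xbp1 was called higher and 0 were called lower, and the median was 0.12. Flt3, a receptor of early progenitors, differed by -1.12 (adjusted p = 0.0992), Jchain by 0.17 (adjusted p = 0.611) and Cd28 by 0.07 (adjusted p = 0.924, all from limma).

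Of 15 Foxo1 targets 11 were tested, 5 with a lower and 6 with a higher mean, with a median of 0.00. Rag1, the recombinase of antigen receptor rearrangement, fell by 0.62 (adjusted p = 0.0312 from limma) and was the only target called. Rag1 was detected in 2 of 6 aged and all 9 young samples, so its aged mean rests mostly on signals at background. It was not called without aged sample 1, 3, 4, 5 or 6 or young sample 1 or 3 (adjusted p up to 0.110 from limma), and of the 14 other settings it was called in 9 and failed the filter in 2. Gadd45a differed by -0.84 (adjusted p = 0.0718) and Cxcr4, the chemokine receptor that holds cells in the marrow, by -0.29 (adjusted p = 0.533, both from limma).

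Other B cell transcription factors also lay on both sides, 6 of 11 tested genes with a lower and 5 with a higher mean, with a median of -0.02. Besides Pou2af1, the called gene was Myb, a factor of dividing precursors, which fell by 0.86 (adjusted p = 0.0484 from limma). With single samples left out Myb was called only without aged sample 2, young sample 1 or young sample 2 (adjusted p 0.00309 to 0.152 from limma), and it was called in 7 of the 14 other settings. Bcl11a differed by -1.22 (adjusted p = 0.0693), Lef1, a factor of precursor B cells, by -0.43 (adjusted p = 0.0600) and Ikzf3, the Ikaros relative Aiolos, by 0.86 (adjusted p = 0.214, all from limma). Lef1 was detected in 1 of 6 aged and 7 of 9 young samples. The 8 tested relatives of the factors all had a higher mean in aged ASCs, with 0 called and a median of 0.39. Irf4, the relative of Irf8 that drives plasma cells, differed by 0.84 (adjusted p = 0.154), and the Tcf3 relatives Tcf12 and Tcf4 by 0.71 (adjusted p = 0.395) and 0.55 (adjusted p = 0.356, all from limma). Among 4 tested partners and corepressors of Bcl6 and Bach2, 0 were called and the median was 0.11. Mafg and Maff, small Maf proteins that pair with Bach2, differed by 0.21 and 0.26 (adjusted p = 0.715 and 0.752 from limma), and Hdac3, a histone deacetylase, by -0.04 (adjusted p = 0.970 from limma).

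**Figure D4:**
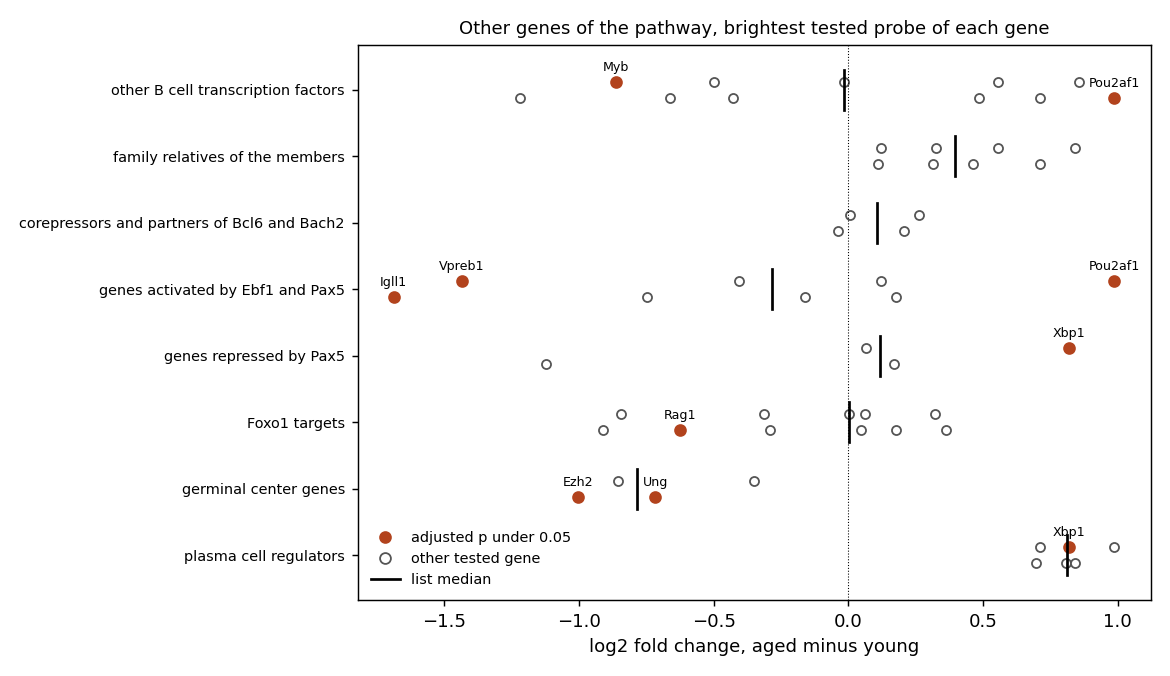
Log2 fold change, aged minus young, of the brightest tested probe of each gene in 8 lists around the factors, with filled red points and names for genes at an adjusted p under 0.05 from limma, open points for other genes and a bar at each list's median. All 6 plasma cell regulators lay above 0 (median 0.81) and all 4 tested germinal center genes below it (median -0.79).

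Markers of other cells moved with age as well. Of 10 precursor B cell markers 8 have a named probe and 7 were tested. Of these, 6 had a lower mean in aged ASCs and 4 were called lower, Dntt (-1.65, adjusted p = 0.00665 from limma), Igll1, Vpreb1 and Rag1. Dntt and Rag1 were detected in 2 of 6 aged samples, Igll1 in 3 and Vpreb1 in 5, and all 4 in all 9 young samples. The aged levels of Dntt, Igll1 and Rag1 thus lie largely at background, and the size of their differences is not exact. The mean of the 7 was 8.56 to 9.12 in aged (median 8.75) and 9.22 to 10.07 in young samples (median 9.59), so that the groups did not overlap. Igll1, Vpreb1 and Rag1 stand in the lists of Ebf1 and Foxo1 targets too, and those results are not separate ones. Ebf1, Foxo1, Bach2 and Irf8 are expressed in precursor B cells, and the part of these markers in the results was not tested. All 8 tested markers of dividing cells had a lower mean in aged ASCs, 8.37 to 9.09 (median 8.87) in aged and 9.03 to 9.59 (median 9.41) in young samples, and 1, Birc5, was called (-0.79, adjusted p = 0.0188, and up to 0.0577 without aged sample 3, 4 or 6, from limma). Birc5 was called in 12 of the 14 other settings, and Dntt in 13 and left out by the filter in 1. With scaling to the 75th percentile 6 of the 8 markers of dividing cells had a lower mean. Ezh2, Ung and Myb are used by dividing cells, and the part of these markers in their differences was not tested.

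Of the 11 tested plasma cell markers, 11 had a higher mean in aged ASCs and 2 were called, Mzb1 (1.17, adjusted p = 0.0152, and 0.0552 without aged sample 3, from limma) and Xbp1. Mzb1 was called in 12 of the 14 other settings. Xbp1, Prdm1 and Irf4 stand among both the plasma cell markers and the plasma cell regulators, and Xbp1 and Jchain also among the genes repressed by Pax5. Irf4 is a listed relative of the factors too, and Tcf4 and Tcf12 stand among both the relatives and the other B cell transcription factors. The counts of these lists are therefore not separate results. Of 12 mature B cell markers, 5 were tested, 3 with a lower and 2 with a higher mean (2 and 3 with scaling to the 75th percentile) and 0 called, and their mean was 9.10 to 9.70 (median 9.50) in aged and 9.12 to 9.72 (median 9.43) in young samples. Ms4a1, Cd22 and Cr2 were not among the tested probes. Plasmacytoid dendritic cells express Spib and Irf8, and of their 7 markers 3 were tested, with 0 called, a mean of 9.18 to 10.23 in aged and 9.48 to 10.31 in young samples, and -0.32 for Siglech (adjusted p = 0.334 from limma). Among 5 tested monocyte and macrophage markers 0 were called, with a mean of 8.77 to 9.55 in aged and 8.63 to 9.61 in young samples. Among 10 neutrophil markers 0 were called, and 7 had a lower mean in aged ASCs. The 5 tested basophil markers all had a lower mean, with 0 called and 8.23 to 9.15 in aged against 8.44 to 9.43 in young samples. Of the T cell markers 2 and of the erythroid markers 3 were tested, with 0 called in either list.

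The brightest probe of each factor was set against the means of the precursor B cell and plasma cell markers within each age group, which gave 28 relations. None passed after adjustment over these 28 relations, with a lowest adjusted permutation p of 0.856 for Pearson's r and 0.817 for Spearman's rho. The smallest unadjusted p was that of Foxo1 with the precursor B cell mean in the aged samples (rho = -0.89, exact permutation p = 0.0333). No aged sample detected Foxo1. Bach2 against the precursor B cell mean had r = 0.05 (exact permutation p = 0.939) and rho = 0.26 (exact permutation p = 0.658) in the 6 aged samples. In the 9 young samples r was 0.44 (exact permutation p = 0.230) and rho 0.40 (exact permutation p = 0.291), and r was 0.19 without the 2 samples farthest from the median. The 3 young samples in which Bach2 was not detected had precursor B cell means within the range of the other young samples or, in young sample 2, below it. Irf8 against the same mean had r = 0.80 (exact permutation p = 0.0583) and rho = 0.83 (exact permutation p = 0.0583) in the aged samples and r = 0.93 without the 2 farthest. In the young samples r was 0.35 (exact permutation p = 0.353), rho 0.22 (exact permutation p = 0.581) and r without the 2 farthest -0.05. Irf8 had a like r with the plasma cell mean in the aged samples, 0.79 (exact permutation p = 0.0875). There rho was 0.43 (exact permutation p = 0.419), and r was -0.30 without the 2 farthest. Aged sample 2 was the lowest aged sample in both marker means, at 8.56 and 9.42, and in Irf8, at 7.79.

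**Figure D5:**
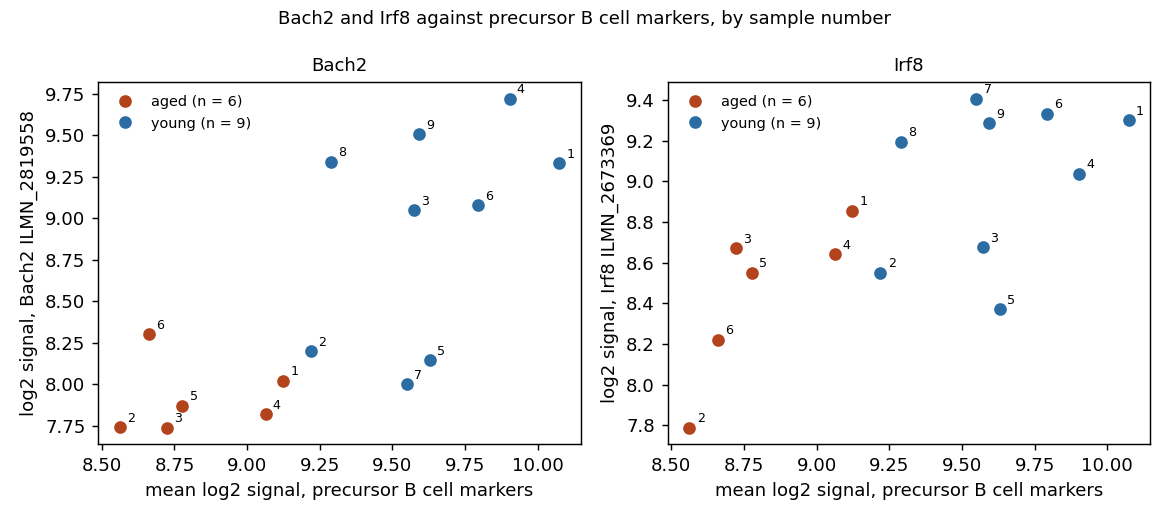
Log2 signal of Bach2 (left) and Irf8 (right) in each sample against the mean log2 signal of 7 precursor B cell markers, aged samples in red and young samples in blue with their sample numbers. The aged samples (8.56 to 9.12) and the young samples (9.22 to 10.07) did not overlap on the marker axis, and young samples 2, 5 and 7 lay at the Bach2 level of the aged samples.

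Genes whose signals followed Bach2 and Irf8 most closely were sought after the group means had been subtracted. Over the 15 samples and among 8785 candidate probes with a gene name, the highest Pearson r with Irf8 were those of Fkbp2 (r = 0.92), Khsrp (r = 0.90) and Selenot (r = 0.89). With Bach2 they were those of Psmc1 (r = 0.86), Nap1l1 (r = 0.85) and Rbm6 (r = 0.84). These are the highest values of a search over many probes and are given as a description with no test. They describe samples within the age groups and not the age difference. Between the groups Fkbp2, Khsrp and Selenot differed by 1.19, 0.09 and 0.54, aged minus young, against -0.56 for Irf8. Psmc1, Nap1l1 and Rbm6 differed by 0.08, -0.24 and -0.08, against a measured -1.02 for Bach2. None of these genes was called.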

How the data were processed

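Sorted bone marrow ASCs of 6 aged and 9 young samples were measured on 17 arrays. RNA was amplified, biotin labelled and hybridized by the authors as their methods state. The authors deposited the intensity of each probe as an average signal per array, not normalized between arrays, and beside it a detection p-value. Deposited quantile normalized intensities for 26509 of the probes served as an alternative, and 0 columns of per-sample values were left unused.

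Quantile normalization was done in R 4.3.3 with limma 3.58.1, followed by log2 transformation. Repeat arrays of young samples 3 and 4 were averaged, and detection on 1 of them sufficed. The filter kept probes that at least 7.5 of 15 samples detected and whose range was 1.2-fold or more. They were fitted by lmFit and eBayes, allowing the variance to follow the intensity, and two-sided p-values were adjusted by Benjamini-Hochberg. The same model was fitted to all probes. Exact permutation tests used the 5005 regroupings of the samples. The procedure was tested on simulated data with planted differences larger than any measured at the factors after quantile normalization, and without a detection limit. That test does not show how well smaller differences near background are found. Tables were handled in data.table (version 1.17.8) and pandas 2.3.3, and plots made in matplotlib 3.10.9.

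The annotation gives 20873 probes 1 gene and 9 several, and 239 further probes took the name of the study's probe table. These 239 were thus named because the study found them to differ, and genes of the lists may rest on such probes. A total of 24169 probes remained without a name. Of 1681 probes named by both, 1667 were named alike. All probes of the factors are named. From each list of the network the called genes and up to 3 others with the smallest p were named, and from each marker list up to 3, with Rag1 as a further called gene. The result of 1 gene under this rule is not reported here. Genes named as not tested were chosen after the filter's outcome was seen. The factors and lists were chosen with earlier results of these data known. Settings were varied by normalization, background correction, filter, test, repeat array, block and left-out sample. Slide and scan date are not given in the sources used here.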

Additional observations from a re-analysis of the deposited data

Results flagged for a closer look

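In 5 of 26 groups of samples, each the aged or young samples of 1 probe, a single sample stood far from the rest of its group by Dixon's test at the 95% level. Chance alone flags about 1 in 20 separate groups of normally distributed values. Here the probes share the same samples, and in each flagged aged group only the flagged sample was detected. The rate is therefore no exact measure for these groups. Foxo1 had a log2 signal of 9.82 in young sample 2, where the next young sample had 8.24. Spib ILMN_2933168 had 9.20 in young sample 1, where the next had 8.45. At the dim Ets1 probes, ILMN_1236290 had 8.51 in aged sample 4, with the next aged sample at 8.15, and ILMN_2770739 had 8.32 in aged sample 5, with the next at 7.92. Bach2 ILMN_2579880 had 8.31 in aged sample 6, with the next at 7.89. Aged sample 6 was also the highest aged sample at the brighter Bach2 probe, at 8.30, and was the only aged sample in which either Bach2 probe was detected.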

How the results depend on the processing

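The number of called probes of these factors was 0 under all planned settings except that it was 0 to 1 with single samples left out, the call being that of Bach2 without young sample 2, 5 or 7. Those are the young samples in which Bach2 was not detected. The number of these probes lower at an unadjusted p under 0.05 was 2, and it was 1 with scaling to the 75th percentile, 4 with no filter, 4 with detection in at least 6 samples, 3 with array weights, 1 with the replicate block and 2 to 4 with single samples left out. Over all tested probes 153 were called. The number was 89 with scaling to the 75th percentile, 45 with no filter, 702 with array weights, 99 with the methods' t-test and 55 with the replicate block. With single samples left out it was between 40 (without aged sample 3) and 317 (without aged sample 2). The methods' t-test gave 1492 probes at an unadjusted p under 0.05. Scaling to the 75th percentile moved the median log2 fold change of all tested probes to 0.05 and their share with a lower mean to 42.5%, against 51.8%. The share higher among tested probes at an unadjusted p under 0.05 moved to 80.1%, against 62.6%. The sign turned for the brightest Ebf1 probe (0.00857) and for Bcl6 (0.0341) with the replicate block, for the brightest Ets1 probe with samples left out (-0.0588, without aged sample 5, to 0.161) and at the other Ets1 probes (-0.14 and -0.35). The Bach2 difference was -2.12 with neqc and -0.11 at the other probe. Causes were not tested. Whether replicate numbers 1 to 6 mark shared handling is not given by the labels and was not tested. Same-numbered deviations correlated at 0.18, 0.23, -0.09, -0.06, -0.10 and -0.02, without a comparison to differently numbered samples. The block is therefore given as an alternative setting and not as a paired test. Alternatives for the called genes of the lists were added after the data were seen. Most probes of the factors lie near the lowest signal that counted as detected (7.87 to 8.41 per sample), which limits what a difference at them can show.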
